A study of Homo sapiens with 12 samples.

Results

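The Mediator kinase module genes are CDK8, CDK19, CCNC, MED12, MED12L, MED13 and MED13L, and they were described here in H3K27ac peak lists from the breast cancer line MDA-MB-231, which is mesenchymal-like and lacks hormone receptors. The members were the peaks within 5 kb of the 7 start sites and over the 7 gene bodies. They came to 537 of the 659281 peaks in the 9 lists, and to 104 of the 120363 regions left when overlapping peaks of all lists were merged. The start sites, given in whole kb of hg19, were chromosome 13 at 26828 kb for CDK8 (plus strand), chromosome 6 at 111136 kb for CDK19 (minus), chromosome 6 at 100016 kb for CCNC (minus), chromosome X at 70338 kb for MED12 (plus), chromosome 3 at 150804 kb for MED12L (plus), chromosome 17 at 60142 kb for MED13 (minus) and chromosome 12 at 116715 kb for MED13L (minus). Distances from a start are therefore uncertain by up to about 1 kb.

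All libraries came from the same cell line. Control cells had received a lentivirus labelled EV-control (the series' design text speaks of control shRNA), CDK19KD cells one with an shRNA against CDK19, and CDK8KD cells one with an shRNA against CDK8. Cells were grown for 96 hours after infection, and 250000 to 500000 unfixed cells entered each native ChIP. Each group had 3 libraries. The labels do not say whether these were separate infections or cultures, so the p-values below measure only the spread between these libraries. An shRNA acts on RNA, so acetylation at CDK8 or CDK19 does not check its own knockdown.

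The kinase module is a detachable part of Mediator, the complex that links DNA-bound activators to RNA polymerase II. It holds 1 kinase, CDK8 or its paralog CDK19, with cyclin C, encoded by CCNC. MED12 or MED12L activates the kinase, and MED13 or MED13L joins the module to core Mediator. H3K27ac, acetylation of lysine 27 of histone H3, marks active promoters and enhancers.

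The lists held 62669 to 87530 peaks and covered 262 to 318 Mb, and the depth of reads behind them is unknown. Control replicates 2 and 3 had the longest lists, with 87530 and 84856 peaks, and 17.1% and 26.1% of their peaks had a −log10 q of at least 5, against 41.3% in Control replicate 1. In the knockdown libraries that share ran from 19.9% to 43.9%. The start windows of VIM, CD44 and CAV1, mesenchymal and basal markers, were covered by 96.2% to 99.8% on average, and each held a peak in 9 of 9 libraries. Of the luminal and epithelial genes, ESR1 held no peak in any library and FOXA1 in 3 of 9, but GATA3 held one in 6 of 9 with 21.8% of its window covered on average, and ERBB3 in 9 of 9 with 33.7%, which goes against the low level the line's phenotype leads one to look for. The GATA3 share was highest in replicate 3 of each group, at 51.0%, 44.0% and 81.7%. CDH1, encoding E-cadherin, held no peak in the 3 Control libraries and 18.4% to 33.8% of its window was covered in the 6 knockdown libraries. By limma with Benjamini-Hochberg adjustment over all windows, CDK8KD was 29.6 points above Control there (adjusted p = 0.0420). CDK19KD was 25.0 points above Control (adjusted p = 0.144). Of all windows, 0.631% were called higher in CDK8KD than in Control.

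RefSeq promoter sequences, 250 bases before the start and 50 from it on, were found for 6 of the 7 genes, with 9 entries in all. The 4 below are shown because they span the acetylation seen at the starts: the 2 kinase genes that the shRNAs target, and the 2 richest promoters in CpG, of which MED13L carried a strong peak in every library and MED12L carried almost none. They are written 5′ to 3′ along the gene, in GRCh38.p14 coordinates, with motif matches in capitals.
CDK8 (chr13:26253879-26254178, plus strand): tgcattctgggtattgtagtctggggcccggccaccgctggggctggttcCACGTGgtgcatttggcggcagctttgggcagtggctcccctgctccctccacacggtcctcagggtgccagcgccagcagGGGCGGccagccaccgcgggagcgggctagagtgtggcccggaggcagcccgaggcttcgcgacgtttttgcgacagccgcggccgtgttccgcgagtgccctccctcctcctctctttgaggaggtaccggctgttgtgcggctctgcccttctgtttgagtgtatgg
CDK19 (chr6:110815806-110816105, minus strand): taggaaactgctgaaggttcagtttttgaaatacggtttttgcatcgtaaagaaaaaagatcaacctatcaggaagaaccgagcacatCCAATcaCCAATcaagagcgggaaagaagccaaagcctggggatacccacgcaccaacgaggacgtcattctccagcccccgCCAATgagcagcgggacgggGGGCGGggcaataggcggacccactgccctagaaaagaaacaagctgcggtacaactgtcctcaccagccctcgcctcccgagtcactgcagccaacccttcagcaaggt
MED12L (chr3:151085414-151085713, plus strand): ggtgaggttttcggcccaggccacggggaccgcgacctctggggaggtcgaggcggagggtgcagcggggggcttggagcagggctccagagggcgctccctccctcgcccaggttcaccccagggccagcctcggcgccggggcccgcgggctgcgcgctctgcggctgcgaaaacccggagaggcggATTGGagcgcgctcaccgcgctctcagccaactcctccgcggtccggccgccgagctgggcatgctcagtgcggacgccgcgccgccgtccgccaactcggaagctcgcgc
MED13L (chr12:116277644-116277943, minus strand): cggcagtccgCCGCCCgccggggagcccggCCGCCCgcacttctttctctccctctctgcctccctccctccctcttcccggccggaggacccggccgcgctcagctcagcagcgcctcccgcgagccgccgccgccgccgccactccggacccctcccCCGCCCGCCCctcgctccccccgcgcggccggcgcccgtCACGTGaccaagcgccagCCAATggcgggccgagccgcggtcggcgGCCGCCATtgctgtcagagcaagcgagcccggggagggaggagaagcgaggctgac

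A total of 8 motifs was searched on both strands. The GC box was read as GGGCGG, which 45.0% of all 35116 promoters of the table held. The CCAAT box was read as its name, CCAAT, and occurred in 34.6%. The E-box was read as CACGTG and occurred in 7.26%. The YY1 motif was read as ATGGCGGC, and about 3% held it. The ETS motif was read as CCGGAAG, with a share of 10.3%. The AP-1 motif was read as TGACTCA, with a share of 4.95%. The TATA box was read as TATAAA, with a share of 11.5%. The NRF1 motif was in 1.24%. The CDK8 promoter held a GC box and an E-box. The first of the 3 CDK19 entries, the one shown, held 3 CCAAT boxes and 1 GC box. The second held 1 GC box and the third 3, and neither held a CCAAT box. MED13L held 4 GC boxes, of which a pair overlap, with 1 CCAAT box, 1 E-box and 1 YY1 match. MED12L held only a CCAAT box, on the opposite strand. MED12L had a GC content of 75.3% and 39 CpG, and MED13L 78.3% and 43 CpG, against table medians of 58.7% and 14. Of these 2 promoters rich in CpG, the one at MED13L lay under a peak in every library and the one at MED12L did not.

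Acetylation at the starts was nearly constant in presence and graded in extent. A peak lay over the start of 6 of the 7 genes, or began at most 0.349 kb past it, in 9 of 9 libraries. MED12L was the exception. Its few peaks had their downstream edge at −0.303 to −0.028 kb from the start, which is within the uncertainty of the start sites. The share of the 10 kb start window covered by peaks, averaged over 9 libraries, ordered the genes as MED13 (66.1%), CDK19 (54.9%), MED13L (51.9%), CCNC (49.2%), CDK8 (36.7%), MED12 (24.1%) and MED12L (3.72%). Neighbours in that order overlapped in their ranges over libraries, except MED12 (15.96% to 31.5%) and MED12L (0% to 11.6%). The median over the 7 genes was 49.2%, beside 58.5% for 25 genes of core Mediator and 29.4% for all 78093 windows tested. MED12L had a mean share under the 5% minimum and was not tested.

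**Figure D1:**
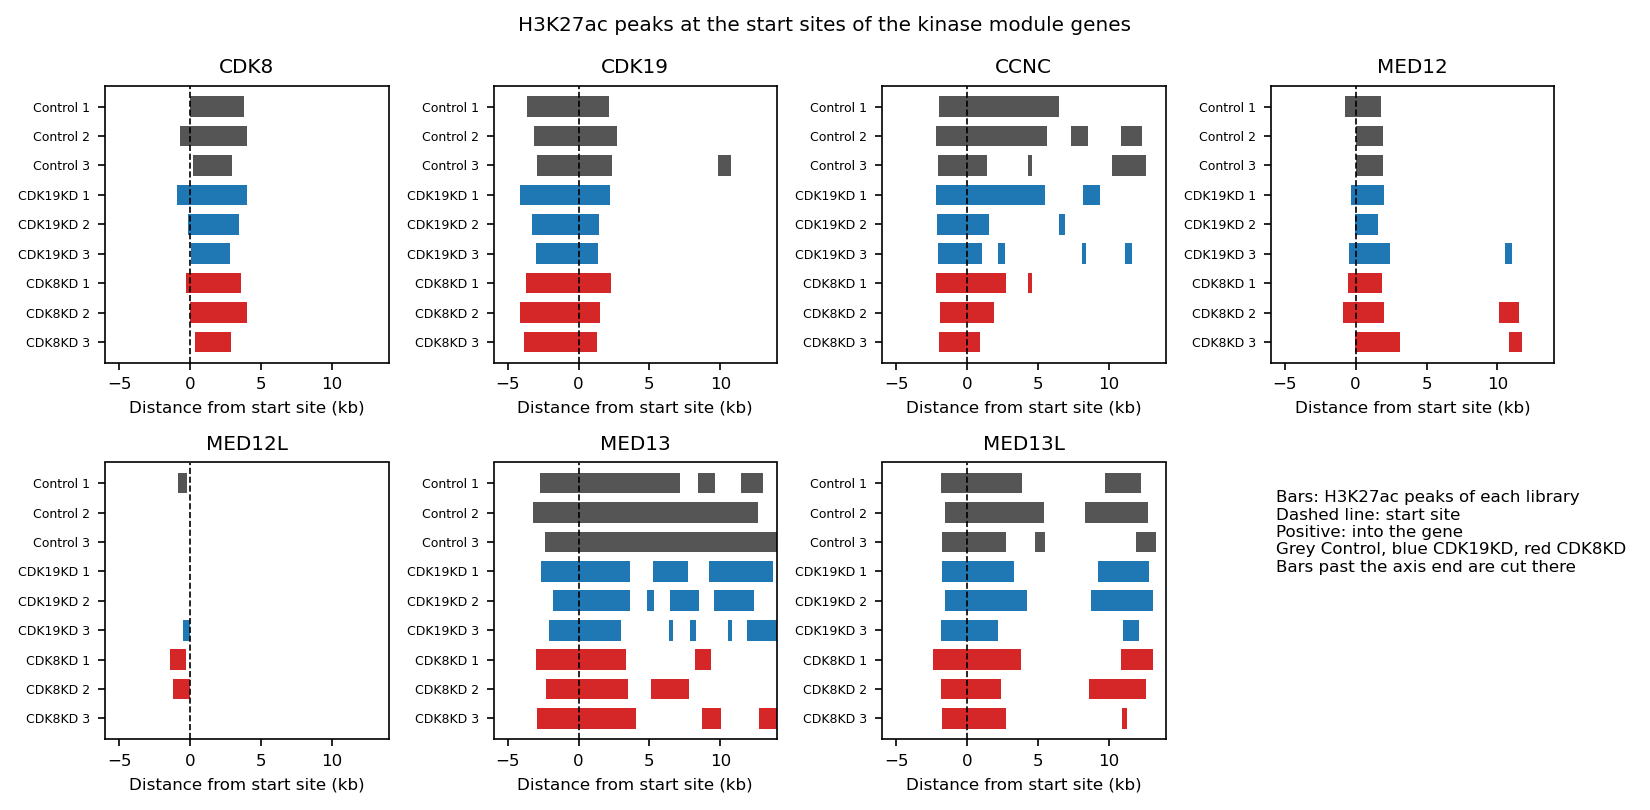
Peaks of each library around the 7 start sites, with distance from the start in kb on the horizontal axis (positive into the gene) and 1 row per library. The 6 genes other than MED12L hold a peak at the start in every row. The MED13 start peaks of the 3 Control rows reach farther into the gene than those of the 6 knockdown rows. Those 6 rows hold separate MED13 peaks farther in.

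CDK8, the kinase targeted in CDK8KD, had 38.3%, 47.2% and 27.6% of its start window covered in Control replicates 1 to 3. The CDK19KD libraries had 49.7%, 36.0% and 28.0%, and the CDK8KD libraries 38.7%, 39.7% and 25.1%. The 3 groups overlapped throughout, and replicate 3 was the lowest of each. The peak was 2.51 to 4.97 kb wide and lay almost wholly downstream, from about the start to 2.85 to 4.04 kb into the gene. Its −log10 p, as the authors' caller gave it, ranked at a median percentile of 81.8 within its own list.

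CDK19, the paralogous kinase, had 57.5%, 58.6% and 53.6% of its window covered in Control. The values were 63.7%, 47.2% and 44.3% in CDK19KD and 60.4%, 56.7% and 51.9% in CDK8KD, so the groups overlapped here too. In contrast to CDK8, the CDK19 peak had its upstream edge at −4.16 to −2.97 kb from the start and its downstream edge at 1.33 to 2.73 kb. RefSeq lists AMD1, which encodes S-adenosylmethionine decarboxylase, as overlapping CDK19, so peaks here need not belong to CDK19 alone.

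CCNC encodes cyclin C, the partner of either kinase. Its start window was covered by 69.8%, 71.9% and 37.3% in Control, by 72.1%, 36.7% and 36.0% in CDK19KD, and by 51.9%, 38.2% and 29.2% in CDK8KD. Its upstream edge was steady, between −2.22 and −1.91 kb from the start, while its downstream edge ran from 0.905 to 6.46 kb. Control replicates 1 and 2 and CDK19KD replicate 1 had the long form of the peak, and the other 6 libraries the shorter one.

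MED12, which activates the kinase, had the narrowest peak of the 6, at 1.60 to 3.15 kb. Its window was covered by 25.7%, 19.4% and 18.9% in Control, 23.2%, 15.96% and 29.0% in CDK19KD, and 24.0%, 28.8% and 31.5% in CDK8KD. The groups overlapped. MED12L, its paralog, held a weak peak near the start in 4 of 9 libraries, with authors' folds of 2.23 to 2.44 and a median percentile of −log10 p of 18.2. Those peaks were in Control replicate 1, CDK19KD replicate 3 and CDK8KD replicates 1 and 2, and they covered 6.1%, 5.0%, 10.8% and 11.6% of the window.

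MED13, which joins the module to core Mediator, was the only one of the 7 genes with a start at which each knockdown group lay below Control. Its window was covered by 77.3%, 82.3% and 73.8% in Control, by 63.3%, 56.3% and 50.6% in CDK19KD, and by 63.4%, 57.8% and 70.0% in CDK8KD. All 6 knockdown libraries lay below all 3 Control libraries. The difference from Control was −21.1 percentage points for CDK19KD (SE 5.07) and −14.1 for CDK8KD (SE 5.07). Neither passed limma's test over all windows with Benjamini-Hochberg adjustment (adjusted p = 0.255 and 0.267). The 2 comparisons share the Control libraries.

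The MED13 difference lay mainly at the downstream edge. The downstream edge stood 7.14, 12.7 and 43.0 kb into the gene in Control replicates 1, 2 and 3, and between 3.01 and 4.05 kb in the 6 knockdown libraries. The upstream edge of the start peak stood at −2.73, −3.23 and −2.39 kb in Control, −2.68, −1.83 and −2.06 kb in CDK19KD, and −3.02, −2.28 and −2.96 kb in CDK8KD. In CDK19KD replicates 2 and 3 and CDK8KD replicate 2 it lay nearer the start than in any Control library. The Control peaks were 9.87, 15.9 and 45.3 kb wide, and the knockdown peaks 5.06 to 7.005 kb. Their authors' folds were 5.43, 3.66 and 2.98 in Control, against 4.81 to 6.17 in the knockdown libraries. The widest Control peaks were thus also the weakest, in the 2 longest lists, and the part of list length in this difference was not tested. With only peaks of a −log10 q of at least 5, the 45.3 kb peak of Control replicate 3 (−log10 q 4.59) dropped out and the differences turned to 2.86 and 10.5 points. With windows of 5 kb they were −6.65 and −0.67 points.

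MED13L, the paralog of MED13, had 56.9%, 65.6% and 46.8% of its start window covered in Control, 51.1%, 58.1% and 40.3% in CDK19KD, and 61.8%, 41.9% and 45.1% in CDK8KD. Its peak began at −2.39 to −1.57 kb from the start and ended at 2.18 to 5.43 kb. The groups overlapped, and the long downstream reach of the MED13 peak in Control was not seen at MED13L.

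**Figure D2:**
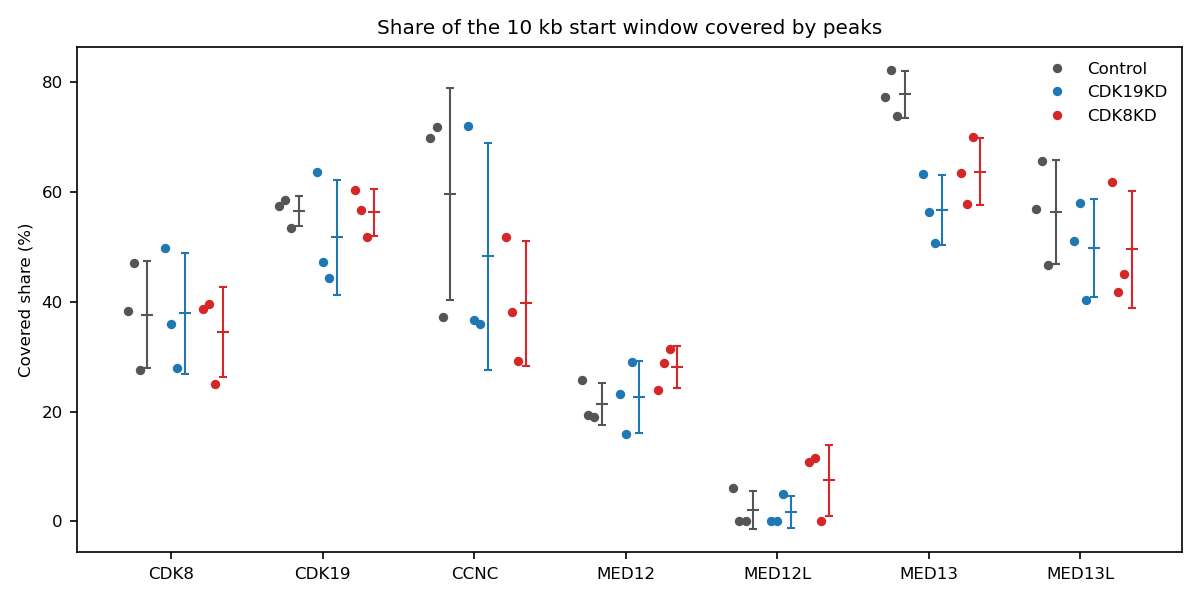
Share of the 10 kb start window covered by peaks (percent) for each gene. Points are libraries, the bars to their right the mean and SD of 3 libraries. MED13 alone shows all 6 knockdown libraries below the 3 Control libraries, from 50.6% to 70.0% against 73.8% to 82.3%.

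By limma across all windows with adjustment over them, none of the 6 tested start windows was called in any comparison. The share of all windows called between CDK19KD and Control was 0.0551% with CDK19KD higher and 0.0230% with it lower. Between CDK8KD and Control, 0.631% had CDK8KD higher and 0.0858% had it lower. Between the 2 knockdowns, 0.224% had CDK19KD higher and 0.780% had it lower. At an unadjusted p under 0.05 the counts were 1, 1 and 0 of 6, where 9.92%, 14.7% and 14.6% of all windows reached that level in the same comparisons. In each comparison with Control, 1 of 6 starts lay below Control without overlap, MED13 both times. The background for that was 7.24% of windows for CDK19KD and 4.50% for CDK8KD. The median difference over the 6 starts was −5.72 points for CDK19KD against Control, −5.02 for CDK8KD against Control and −2.18 for CDK19KD against CDK8KD, beside −2.26, 0.88 and −3.22 over all windows. Among the 25 core Mediator genes, 0 were called by limma in each comparison, with 3, 5 and 3 at an unadjusted p under 0.05, not far from those shares of all windows. Their lowest mean shares were 34.2% at MED4, a middle subunit, and 38.2% at MED11, a head subunit.

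Inside the gene bodies the members fell into distinct forms. CDK8 held 1 to 3 peaks over 151 kb and was covered by 1.66% to 3.56%. Only Control replicate 2, at 3.56%, held peaks inside the gene beside the start peak, 1.118 and 0.25 kb wide. CDK19 held 5 to 7 peaks over 205 kb, MED12 1 or 2 over 24 kb, CCNC 1 to 6 over 26 kb, MED12L 8 to 17 over 351 kb, MED13 5 to 29 over 122 kb and MED13L 9 to 41 over 319 kb. The largest number for MED13L, 41 peaks, was in Control replicate 2, the longest list. MED12L, nearly bare at its start, had 8 regions inside the gene that all 9 libraries held, more than any other member. RefSeq places other genes within the span of MED12L, so peaks there cannot be assigned to one gene from these files.

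**Figure D3:**
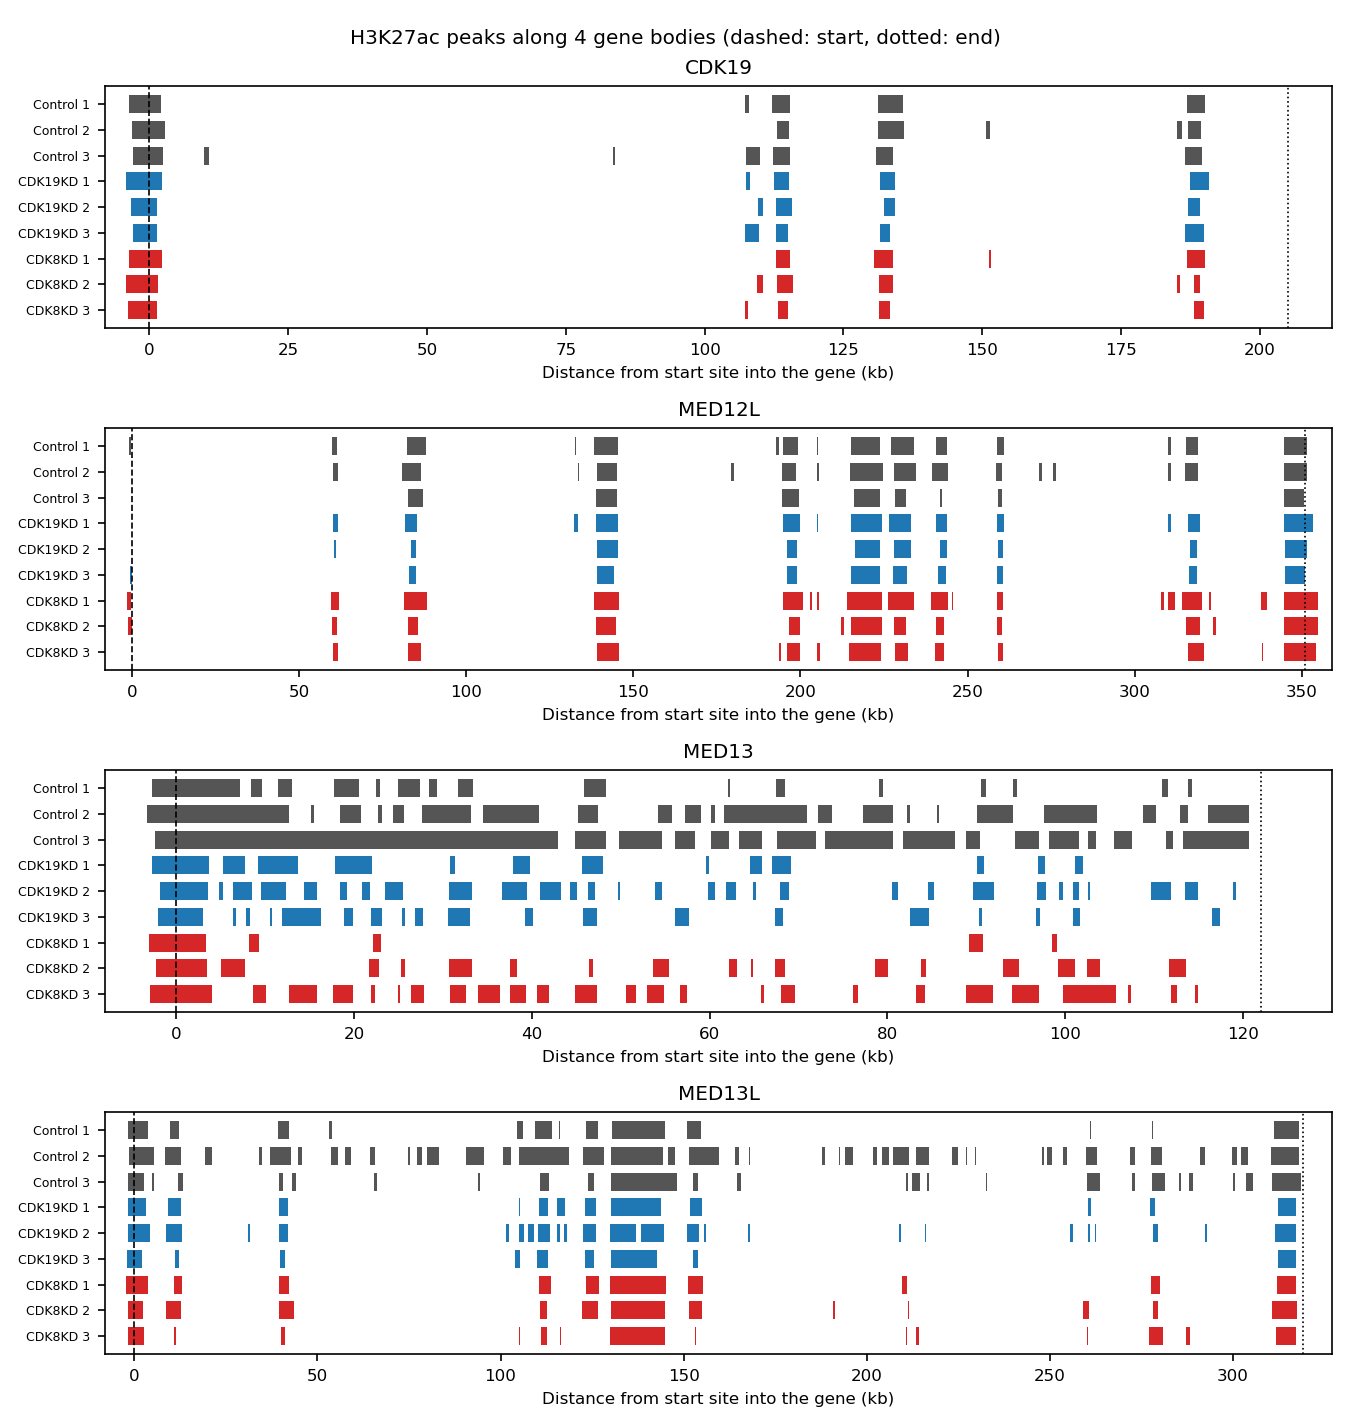
Peaks along CDK19, MED12L, MED13 and MED13L in each library, with distance from the start in kb on the horizontal axis, the start dashed and the gene's end dotted. MED12L shows repeated internal peaks and almost none at its start, and MED13 is filled with peaks in Control replicates 2 and 3, where 54.7% and 77.7% of the body was covered.

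Of the 104 member regions, 24 (23.1%) were held by all 9 libraries, beside 28.3% of all regions, and 41 (39.4%) by a single library, beside 38.5%. No member region was held by every library of one group and by none of another. The strongest shared region away from a start was in MED12L, 213.9 to 224.6 kb into the gene (chromosome 3 from 151017935 to 151028610), at a median percentile of 92.4 for −log10 p. It covered 8.65, 9.65 and 7.73 kb in Control, 9.34, 7.57 and 8.59 kb in CDK19KD, and 10.4, 9.37 and 9.31 kb in CDK8KD, and the groups overlapped. It was also the widest region of MED12L, at 10.7 kb. The widest regions of the other members were those over the start of CDK8 (4.97 kb, chromosome 13 from 26827064 to 26832037), CDK19 (6.89 kb, chromosome 6 from 111133270 to 111140158), CCNC (8.68 kb, chromosome 6 from 100009538 to 100018218), MED12 (3.99 kb, chromosome X from 70337134 to 70341121) and MED13 (46.5 kb, chromosome 17 from 60098757 to 60145227). In MED13L the widest lay inside the gene.

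The CDK19 body was covered less in each knockdown library than in any Control library, a difference that missed the exact test. Peaks covered 6.73%, 6.62% and 7.49% of the body in Control, 5.70%, 4.52% and 5.50% in CDK19KD, and 5.80%, 4.57% and 3.73% in CDK8KD. The means were 6.95% ± 0.475, 5.24% ± 0.634 and 4.70% ± 1.04 (SD, n = 3). Of tiles of the genome as long as CDK19, 9.03% had all 3 libraries below all 3 Control libraries for CDK19KD and 5.52% for CDK8KD. Groups accounted for 70.7% of the variance, with an exact two-sided permutation p of 0.0571 over 280 arrangements, where the smallest possible was 0.00357. Within replicate numbers the exact p was 0.111, where the smallest possible was 0.0278. The exact permutation p was 0.0393 with shares scaled by the covered length of each list and 0.221 with lists cut to their 20000 strongest peaks.

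Of the 4 CDK19 regions held by all libraries, 1 internal region had groups that did not overlap. It lay 130.6 to 135.9 kb into the gene (chromosome 6 from 111000056 to 111005408). Peaks covered 4.57, 4.79 and 3.03 kb of it in Control, 2.71, 1.91 and 1.87 kb in CDK19KD, and 3.37, 2.49 and 1.98 kb in CDK8KD. CDK19KD lay below Control without overlap and CDK8KD overlapped Control. An exact permutation test of 3 against 3 libraries gave p = 0.1 for CDK19KD against Control, the smallest it can give.

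CCNC and MED13 varied most between libraries of one group. CCNC's body was covered by 24.9%, 52.9% and 19.03% in Control, 27.3%, 13.97% and 9.92% in CDK19KD, and 11.4%, 11.4% and 3.48% in CDK8KD. The CDK8KD libraries lay below the Control libraries, as did 4.93% of tiles of that length, and the exact permutation p over 3 groups was 0.0714. MED13's body was covered by 20.1%, 54.7% and 77.7% in Control, 21.3%, 31.5% and 19.7% in CDK19KD, and 6.07%, 20.4% and 35.7% in CDK8KD, with overlapping groups and an exact permutation p of 0.2. The 2 high MED13 values were those of Control replicates 2 and 3, the 2 longest lists, and their part in it was not tested. Over 14 alternative settings the exact permutation p for the MED13 body ran from 0.0321 to 0.636. It was under 0.05 in 1 of them, the one without Control replicate 1.

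For the whole bodies of MED12, MED12L and CDK8, the groups overlapped and the exact test did not pass. The covered share of the MED12 body was 7.82% ± 0.310 in the Control libraries, 8.89% ± 2.86 after CDK19 knockdown and 12.9% ± 4.66 after CDK8 knockdown (SD, n = 3, exact permutation p = 0.186). Each CDK8KD library lay above the Control library of the same number at MED12. MED12L had 13.5% ± 3.09, 11.5% ± 2.45 and 14.9% ± 3.77 (SD, n = 3, exact permutation p = 0.432). CDK8 had 2.64% ± 0.871, 2.27% ± 0.409 and 2.22% ± 0.499 (SD, n = 3, exact permutation p = 0.704).

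**Figure D4:**
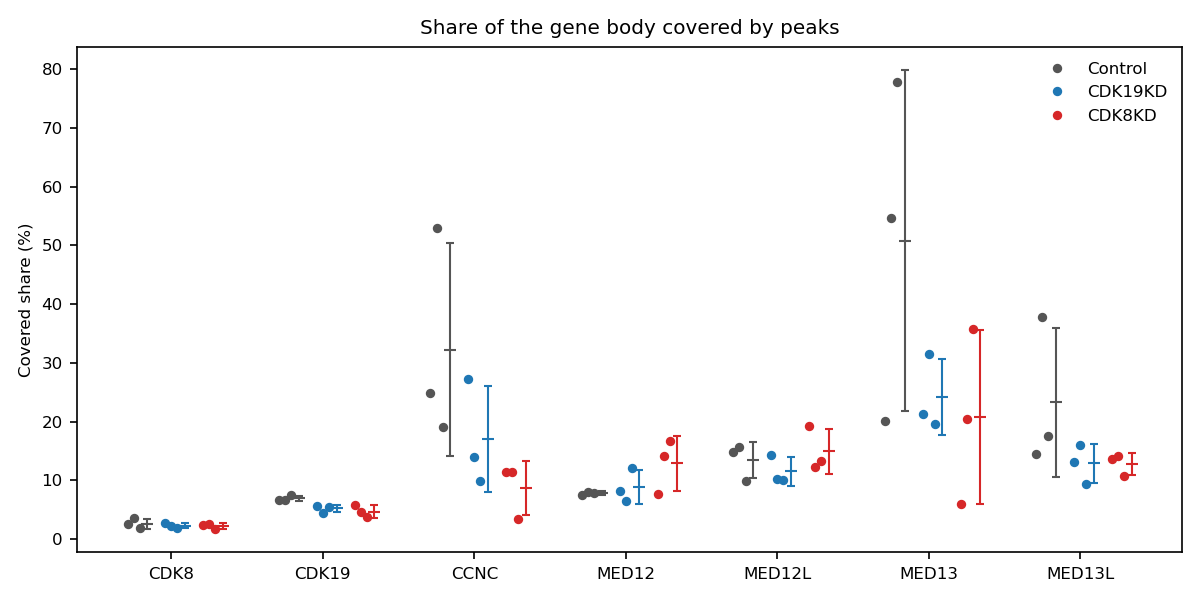
Share of each gene body covered by peaks (percent). Points are libraries, the bars to their right the mean and SD of 3 libraries. CDK19 shows both knockdown groups below Control, while MED13 and CCNC spread widely within Control, from 20.1% to 77.7% and from 19.03% to 52.9%.

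Of the 57 tested windows over the gene bodies, 1 passed the adjusted test, in MED13L and between the 2 knockdowns, where 0.780% of all windows were called lower in CDK19KD and 0.224% higher. Its body as a whole was covered by 14.5%, 37.8% and 17.5% in Control, 13.2%, 16.1% and 9.39% in CDK19KD, and 13.6%, 14.2% and 10.7% in CDK8KD (exact permutation p = 0.0857). CDK8KD lay below Control without overlap, as did 5.46% of tiles of that length. When each list was reduced to its 20000 strongest peaks, the coverage was 7.91%, 8.57% and 8.998% in Control, 6.88%, 5.31% and 6.09% in CDK19KD, and 7.62%, 7.49% and 7.38% in CDK8KD. The 3 groups then did not overlap, with CDK19KD lowest, and the exact permutation p was 0.00357, the smallest possible. Each of the 7 genes was tested this way and the p is not adjusted over them. It is also 1 of 14 alternative settings, over which the MED13L exact permutation p ran from 0.00357 to 0.375. It was under 0.05 in 3 of them.

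The widest MED13L region lay 129.8 to 148.3 kb into the gene (chromosome 12 from 116566708 to 116585202), was 18.5 kb wide, and ranked at a median percentile of 90.4 for −log10 p. Peaks covered 14.4, 16.01 and 18.1 kb of it in Control, 13.7, 13.4 and 12.4 kb in CDK19KD, and 15.2, 14.9 and 15.2 kb in CDK8KD. CDK19KD lay below both other groups without overlap. Within it, the window from 116570001 to 116580000 was covered by 98.3%, 94.0% and 100% in Control, 87.4%, 83.3% and 76.0% in CDK19KD, and 100% in each CDK8KD library. The difference of CDK19KD from CDK8KD was −17.8 points (SE 2.86), with an adjusted p of 0.0416 by limma. The share cannot exceed 100%, so the CDK8KD libraries were at its limit, with an SD of 0 against 5.77 in CDK19KD. With the replicate number as a block the adjusted p was 0.0624, and it was also above the threshold without any single one of the 9 libraries, from 0.0514 to 0.139. CDK19KD was 15.2 points below Control there (difference −15.2, adjusted p = 0.158). Another shared region of MED13L, 104 to 118.7 kb into the gene, went the other way between the knockdowns. Peaks covered 5.16, 7.87 and 4.29 kb of it in CDK19KD and 3.11, 2.02 and 2.60 kb in CDK8KD, without overlap. Control had 6.87, 13.6 and 2.39 kb and overlapped both.

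At the far end of MED13L, 310.3 to 318.6 kb into the gene (chromosome 12 from 116396438 to 116404664), both knockdown groups lay below Control. Peaks covered 6.95, 7.74 and 7.86 kb in Control, 4.93, 5.68 and 4.81 kb in CDK19KD, and 5.31, 6.65 and 5.60 kb in CDK8KD. In MED12L the region 344.6 to 354.9 kb in (chromosome 3 from 151148552 to 151158852), which reaches past the gene's end, went the other way in CDK8KD. Its covered length was 7.62, 8.06 and 5.84 kb in Control, 8.63, 6.68 and 6.03 kb in CDK19KD, and 10.3, 10.2 and 9.51 kb in CDK8KD. All 3 CDK8KD libraries lay above the other 6. Another MED12L region, 81.0 to 88.3 kb in, had CDK19KD below Control without overlap. Peaks covered 5.58, 5.70 and 4.50 kb of it in Control and 3.41, 1.515 and 2.12 kb in CDK19KD. CDK8KD had 6.92, 3.02 and 4.02 kb there and overlapped both. For each of these pairs the exact permutation p was 0.1, the smallest possible. These internal regions were singled out after their values were seen.

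**Figure D5:**
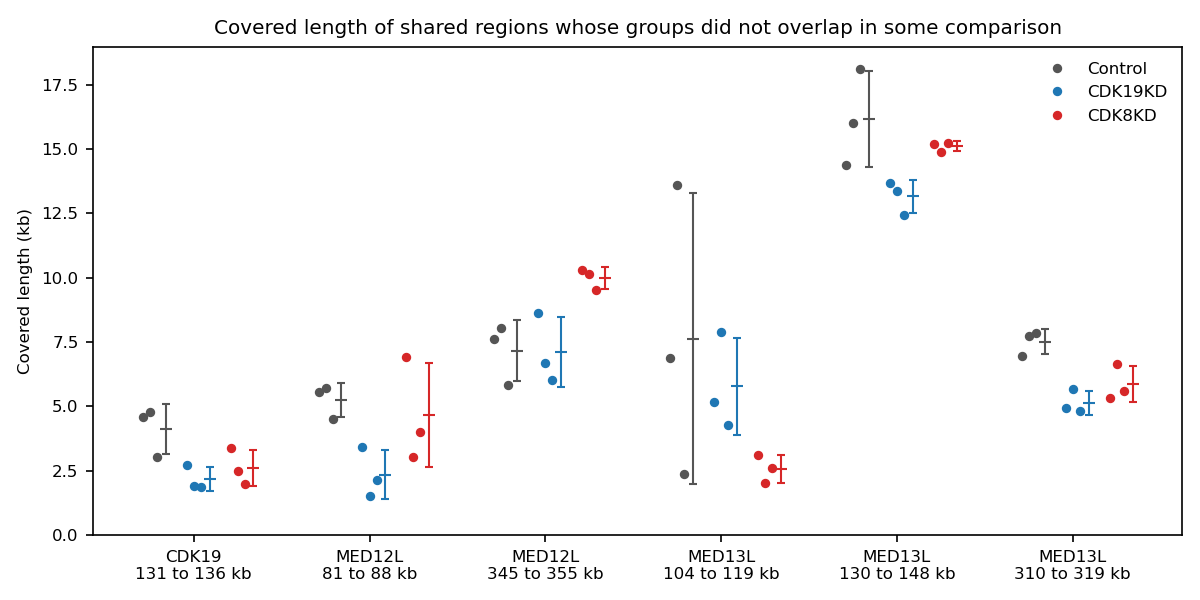
Covered length in kb of the 6 regions held by all 9 libraries in which the groups of some comparison did not overlap. Points are libraries, the bars to their right the mean and SD of 3 libraries, and labels give the distance from the start. CDK19KD lies below Control in 4 regions, and CDK8KD above Control only in the MED12L region at 345 to 355 kb.

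Over the 24 member regions held by all libraries, CDK19KD lay below Control without overlap in 4 and above in 0, where the background over all such regions was 8.44% and 6.90%. CDK8KD lay below Control in 1 and above in 1 (background 4.34% and 15.8%), and CDK19KD below CDK8KD in 2 and above in 1 (19.7% and 4.52%). As shares of the 24 regions, CDK19KD below Control came to 16.7%, above its background, and CDK19KD below CDK8KD to 8.33%, under its background. Of the 126 windows of 10 kb over the gene bodies, 57 were tested. The numbers called by limma were 0 between CDK19KD and Control, 0 between CDK8KD and Control and 1 between CDK19KD and CDK8KD, with 11, 11 and 4 at an unadjusted p under 0.05, beside 9.92%, 14.7% and 14.6% of all windows. Out of 57, the counts of both comparisons with Control lay above their background shares, and the last count lay under its own. Some windows passed the 5% minimum only through Control, so these counts are a description and no conclusion is drawn from them. An example is the MED13L window from 116410001 to 116420000, with 16.1% in Control and 0% in both knockdown groups. It is in both counts against Control (unadjusted p = 0.0476 by limma each time). Groups did not overlap in 10 windows below and 1 above Control for CDK19KD, beside 7.24% and 6.52% of all windows. For CDK8KD the numbers were 6 below and 5 above, beside 4.50% and 12.8%. CDK19KD lay below CDK8KD in 5 windows and above it in 2, beside 15.4% and 5.38%. Out of 57, the counts below Control lay over their background shares and the counts above Control under theirs. Between the knockdowns both counts lay under theirs. Neighbouring windows of a gene can share a peak, so they are not independent. Windows at the edge of a body also hold sequence outside it. The 1 window with CDK19KD above Control, chromosome X from 70330001 to 70340000, lay mostly upstream of the MED12 start at 70338 kb. Its means were 42.7% in CDK19KD and 21.4% in Control, while the MED12 start window had 22.7% and 21.4%.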

How the data were processed

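H3K27ac native ChIP-seq libraries of MDA-MB-231 were grouped by the sample titles into Control, CDK19KD and CDK8KD, 3 each, and 3 Input samples were not analysed here. The authors deposited 1 broad peak list per library. MACS2, deepTools and the build hg19 are named in the submitters' processing notes, while versions, settings, aligner and control library are not given in the sources used here. Per the file layout, each deposited peak carries a score, a fold enrichment (a linear ratio), a −log10 p and a −log10 q. These values belong to the calling of each library and served here to rank and filter peaks inside their own list. The deposited score, 10 times the −log10 q rounded down, was not used. The lists hold no counts, so the depth is unknown and no count model or counting interval was used. Broad calling joins or splits neighbouring peaks depending on depth, which moves widths and covered shares.

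The share of each 10 kb window covered by peaks was computed on chromosomes 1 to 22 and X, with the start windows added, and windows averaging 5% or more were fitted together with limma 3.58.1 (eBayes with a trend, 9 libraries, 3 groups) in R 4.3.3. P-values were adjusted by Benjamini-Hochberg over all of them and called under 0.05. Gene bodies were compared by an exact permutation test over 280 arrangements. Regions were built by merging the overlapping peaks of all lists, and a library held one with 1 bp of overlap. Scripts were tested on simulated data. Same-numbered libraries of different groups deviated together, with correlations of 0.138 to 0.611 in all 9 pairs, so the replicate number was taken to pair libraries as a hint from the data; blocked values are given where they change a call. Gene ends and the starts of the 25 core Mediator genes and 8 markers were set from general knowledge to the nearest kb in hg19, with no hg19 annotation used. Their chromosomes matched RefSeq for 33 of 33 listed genes. MED30, on the chromosome left out of the list, was not used. All 7 genes were named, with core Mediator genes called in any comparison or else the 2 of lowest share, the widest region of each gene and any group-exclusive region. The members and lists were chosen with earlier results of these data known. Alternatives covered the peaks used, joining, scaling, the block, window size, the minimum share and leaving out each library.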

Additional observations from a re-analysis of the deposited data

Results flagged for a closer look

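The MED13L window on chromosome 12 from 116570001 to 116580000 differed between the 2 knockdown groups. CDK19KD was 17.8 percentage points below CDK8KD (difference −17.76, adjusted p = 0.0416 by limma, 3 libraries each, all 3 CDK19KD libraries below all 3 CDK8KD libraries). In that comparison 0.780% of all windows tested were called lower in CDK19KD and 0.224% higher. All 3 CDK8KD libraries were at 100%, the most the share can reach, so they showed no spread. The adjusted p ranged from 0.0416 to 0.744 over this window's alternatives.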

How the results depend on the processing

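No start window of the kinase module genes or of the core Mediator genes was called under any alternative run (count 0 throughout). The body window count between CDK19KD and CDK8KD, 1 as reported, became 0 with peaks of −log10 q of at least 5, with the 20000 strongest peaks, with 5 kb windows, with no minimum share, with scaling by covered length, with the replicate block and without each library in turn. Joining peaks within 1000 bp changed nothing, since the smallest gap between peaks was 1001 bp. Without Control replicate 1 the counts against Control rose from 0 to 2 (CDK19KD) and 5 (CDK8KD), all lower, and their ranges over left-out libraries were 0 to 2 and 0 to 5. The count of gene bodies with an exact permutation p under 0.05, 0 as reported, was 2 with −log10 q of at least 5 (CDK19, p = 0.0429, and MED13L, p = 0.00357), 1 with the 20000 strongest peaks (MED13L, p = 0.00357), 1 with scaling (CDK19, p = 0.0393) and 0 to 2 without single libraries. It was 2 without Control replicate 1 (MED13 and MED13L) and 1 without CDK19KD replicate 2, CDK8KD replicate 1 or CDK8KD replicate 3 (CDK19 each time). Regions held by all libraries, 24 as reported, numbered 10 when 50% of a region had to be covered, 5 with −log10 q of at least 5 and 6 with the 20000 strongest peaks, where fewer peaks enter by construction. The causes of the other changes were not tested. Among the start windows, body windows and gene bodies tested, the block changed no other call. Depth is unknown, so a weak or missing peak in a single library cannot be told from low enrichment of that library. At the start of MED12L the peak was weak or missing in every library, while each library held a peak at the starts of the other members. The cause of this was not tested. With −log10 q of at least 5, CDK8 held a start peak in 8, MED12 in 7, MED13 in 8 and MED12L in 0 of 9 libraries. With the 20000 strongest peaks these numbers were 7, 6, 8 and 0. CDK19, CCNC and MED13L held one in 9 of 9 under both settings.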
